A study of Homo sapiens with 16 samples.

Results

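The genes described here are 44 genes of the G1/S transition and of DNA replication, taken by symbol from the 18334 genes that the probes of an Agilent array named. They were divided by role into 12 genes of the replicative helicase and its partners, 5 of origin licensing, 7 of the cyclin E, CDC25A and E2F group, 12 of the polymerase, clamp and Okazaki fragment machinery, 4 of nucleotide supply, and 4 linked to chromatin assembly or to PCNA-dependent ubiquitination. All 44 were measured, by 103 probes, and probes of 1 symbol were averaged. A total of 17 genes had more than 1 probe.

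The study irradiated A549 cells (a long-established line from a human lung adenocarcinoma) and compared carbon ions with X-rays and a later with an earlier time. The groups were cells 4h after C12 (carbon ions), cells 1h after C12, cells 4h after X-rays and cells 1h after X-rays, with 4 arrays each and 16 in all. Each of the 16 independent cultures supplied an irradiated and a control plate, which were labelled with different dyes (Cy3 or Cy5, balanced between arrays) and hybridised together on 1 array. RNA of 2 independent experiments had been pooled, so an array stands for pooled RNA and not for a single pair of plates. The sources used here give no dose, so a comparison of C12 with X-rays is not known to be one at equal dose.

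Before a cell can copy its DNA, the origin recognition complex, CDC6 and CDT1 load the MCM2 to MCM7 ring onto origins, and geminin (GMNN) holds CDT1 in check until the next cycle. Cyclin E with its kinase, relieved of inhibitory phosphate by CDC25A, then drives the cell into S phase, where CDC45 and the GINS complex turn the MCM ring into the working helicase. Most of these genes are textbook E2F targets. In cells with functional p53, such as A549, radiation raises p21 (CDKN1A), which inhibits cyclin-dependent kinases and so keeps RB-family proteins on E2F promoters.

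Each value is a log2 ratio of the irradiated over the control plate of the same culture. A ratio of 0 means equal signal in both plates. The ratios carry no level of expression, and the identity of the line could therefore not be checked against marker levels. The labels did not settle the direction of the ratios. On the C12 arrays, pairs with the irradiated plate in the same labelled dye correlated over genes with r between -0.89 and 0.88, with a median of -0.86 (12 pairs), where ratios of 1 kind would all be positively related. For the X-ray arrays the same pairs lay between -0.40 and 0.30. Replicates 1 and 2 of every group were therefore multiplied by -1, which gives the likely direction, irradiated over control. That choice had been made with p53 targets in view, so the direction of p53 targets is not evidence for it. If the ratios run the other way on every array, all signs below turn round while sizes and tests stay as they are. In E2F7 the change 4h after X-rays would then be -0.99. If other arrays are the ones to be turned, sizes and tests change as well. At 4h after X-rays the median of the 44 genes was -0.23 with the ratios as deposited (38 negative). It was 0.09 with the deposited ratios turned by the labelled dye (13 negative), against -0.10 (29 negative) as used.

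Replicate 2 of the cells 4h after X-rays stood apart from the other arrays. limma's array weights, which score how far an array departs from the fitted values, gave it 0.0837, against 0.226 to 3.67 on the others. The median over the 44 genes was -0.04, 0.30, -0.48 and -0.32 on replicates 1 to 4 of that group, and the median over 49 mitotic genes was -0.53, 0.20, -0.87 and -0.89. On replicate 2 both medians were positive, and on the other 3 arrays both were negative. The median of 26 housekeeping genes was 0.34 on replicate 2 and 0.33 on replicate 1. That of 28 p53 targets was 0.73 on replicate 2 and 0.87 to 0.95 on the others. The calls and medians at 4h after X-rays are given with and without replicate 2. The median of the 44 genes was positive on it, so lower values without it follow in part from that choice. Falls counted that way are no independent support for a decrease. Leaving out replicate 2 leaves 1 array with the irradiated plate in Cy3 and 2 with it in Cy5. Values without it are therefore limma changes after a dye term has been taken off, and not means of the arrays left. In the fit to all arrays C12 and X-rays share that term. Fitted apart, its median over the 44 genes was 0.53 on the C12 arrays and 0.09 on the X-ray arrays. A positive term puts the change without replicate 2 below the mean of the arrays left.

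Letters of the E2F binding site were frequent in front of the genes. RefSeq's tables for GRCh38.p14 held a start site for 39 of the 44, and the 250 bases before each start were searched on both strands. The E2F letters counted were the spelling TTCCCGC, the spelling TTCGCGC, the spelling TTGCCGC and the spelling TTGGCGC. At least 1 match stood before 25 of the 39 genes (64.1%), against 13.0% of 27305 genes. CCAAT, the box bound by NF-Y, stood before 24 of 39 (61.5%), against 37.0% of all genes. TTTGAA or TTCGAA, the CHR element of mitotic genes, stood before 2 of 39 (5.1%), against 17.2% of all genes. A match describes letters and not a bound site. The windows of the 4 genes on which the X-ray results turn follow, as given by RefSeq in GRCh38.p14, read 5′ to 3′ on the strand of the gene, with the E2F letters in capitals. The E2F7 window is chr12:77065570-77065819, minus strand. The E2F2 window is chr1:23531234-23531483, minus strand. The CDC25A window is chr3:48188418-48188667, minus strand. The DTL window is chr1:212035498-212035747, plus strand.
E2F7: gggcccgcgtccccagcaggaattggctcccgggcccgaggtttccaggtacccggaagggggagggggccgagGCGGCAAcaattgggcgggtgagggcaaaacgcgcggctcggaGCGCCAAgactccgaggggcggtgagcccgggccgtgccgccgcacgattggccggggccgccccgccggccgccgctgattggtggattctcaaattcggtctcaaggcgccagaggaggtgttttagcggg
E2F2: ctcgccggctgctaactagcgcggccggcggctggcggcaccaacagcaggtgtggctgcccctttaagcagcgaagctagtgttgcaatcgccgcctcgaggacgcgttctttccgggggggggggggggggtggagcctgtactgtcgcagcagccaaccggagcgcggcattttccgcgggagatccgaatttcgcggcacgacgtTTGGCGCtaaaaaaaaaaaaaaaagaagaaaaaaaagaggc
CDC25A: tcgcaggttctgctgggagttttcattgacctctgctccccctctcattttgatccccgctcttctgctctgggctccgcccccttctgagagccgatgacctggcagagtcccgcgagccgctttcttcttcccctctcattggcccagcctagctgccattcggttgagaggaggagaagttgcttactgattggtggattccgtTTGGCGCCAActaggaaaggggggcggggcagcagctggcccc
DTL: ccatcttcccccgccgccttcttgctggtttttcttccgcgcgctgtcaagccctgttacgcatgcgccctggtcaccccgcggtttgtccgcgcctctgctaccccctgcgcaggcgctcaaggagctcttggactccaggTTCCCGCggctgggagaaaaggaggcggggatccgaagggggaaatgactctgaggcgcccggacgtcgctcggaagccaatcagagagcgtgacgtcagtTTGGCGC
All 4 windows held the letters, and their distance from the start differed. They lay 133 and 176 bases before the start of E2F7, 41 before that of E2F2, and 7 and 108 before that of DTL. In CDC25A the capitals are 2 overlapping matches, 1 on each strand, 40 and 43 bases before the start.

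Among the 44 genes, E2F7 rose 4h after X-rays, and the other 43 did not pass the test. The test was limma's, fitted to all 18334 genes on all 16 arrays with a term for the dye, at a Benjamini-Hochberg adjusted p under 0.05. Over all genes 0.524% rose and 0.0436% fell in that comparison. An unadjusted p under 0.05 was found for 7 of the 44 genes, against 6.72% of all genes. The median change of the 44 was -0.10, with 29 of them negative, against a median of 0.00 over all genes. None of the 44 passed at 1h after X-rays (0.0491% of all genes passed, with 0.0436% rising and 0.00545% falling), and their median was 0.08 with 12 negative. An unadjusted p under 0.05 by limma was found for 3 of the 44 at 1h, against 2.57% of all genes. Each array stands for RNA pooled from 2 independent experiments. The spread in the tests is that between arrays, shared by C12 and X-rays, and not that between cultures of 1 group. It also holds the misfit of 1 dye term to both radiation qualities. The root mean square residual over all genes was 0.21 on the C12 arrays and 0.34 on the X-ray arrays. With a dye term per quality it was 0.13 and 0.30. In bulk RNA of this kind, a smaller share of cells in S phase and less RNA per cell cannot be told apart.

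**Figure D1:**
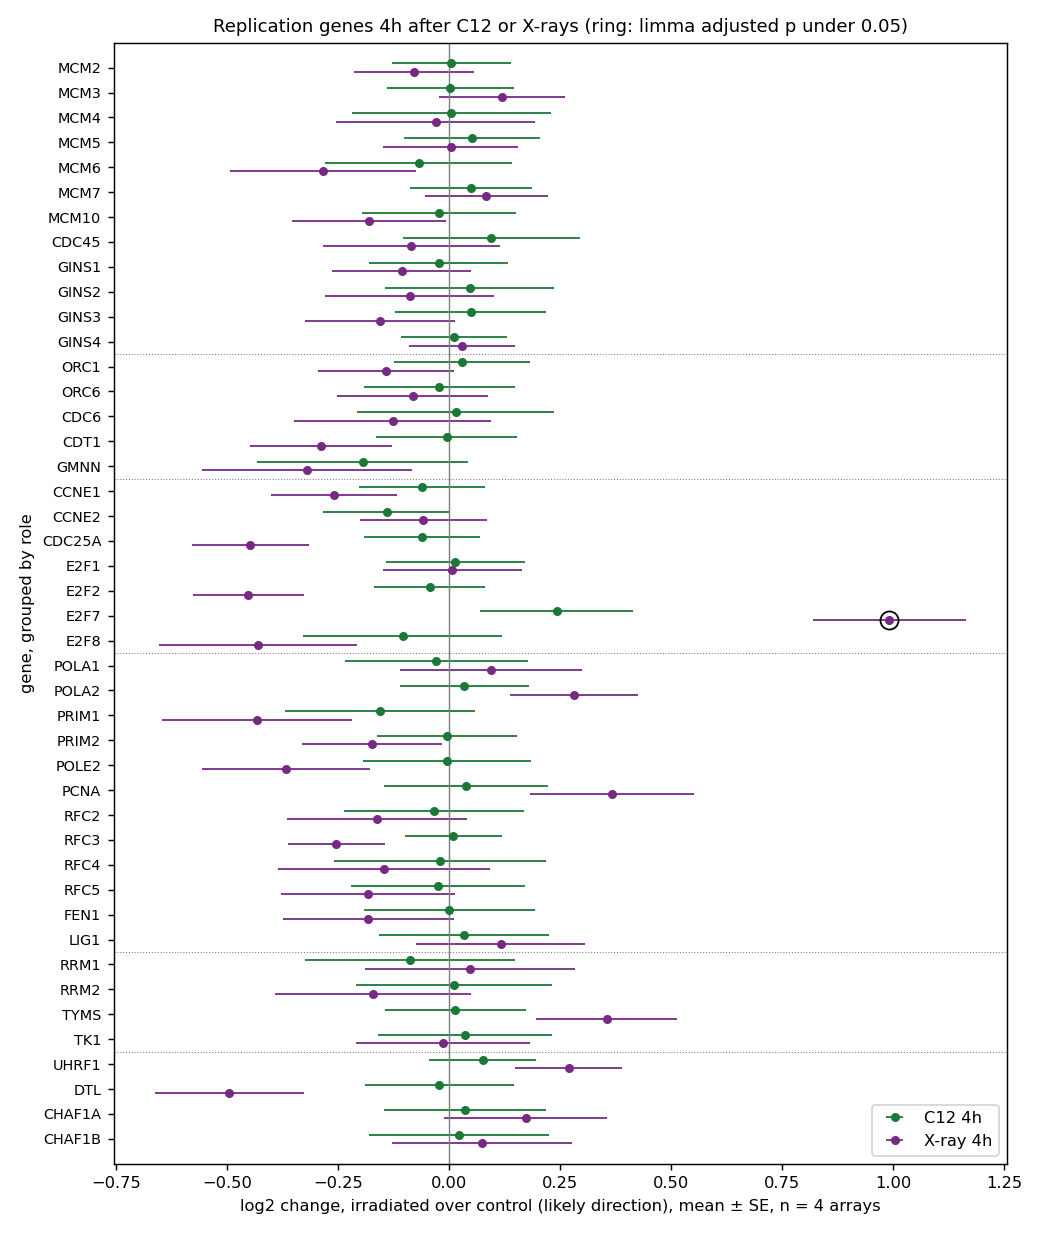
Log2 change of each of the 44 genes 4h after C12 (green) and 4h after X-rays (purple), irradiated over control in the likely direction, as the mean over 4 arrays with limma's standard error. E2F7 at 4h after X-rays is ringed, the 1 change with an adjusted p under 0.05, and the C12 values lie close to 0.

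The plot of changes at 4h places the C12 values of the 44 genes between -0.20 and 0.24 and their X-ray values between -0.50 and 0.99. The values behind it are given below by role, starting with the helicase.

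None of the 12 helicase genes passed the test at 4h or 1h after X-rays. MCM2, a ring subunit, had ratios of 0.47, -0.46, -0.66 and 0.33 on the 4 arrays at 4h after X-rays. MCM3 had 0.34, 0.25, -0.73 and 0.63, and at 0.12 ± 0.14 (SE, adjusted p = 0.9817 by limma) its mean was the highest of the 12 helicase genes. MCM5 had 0.64, -0.60, -0.68 and 0.65. In all 3 the group holds ratios of both signs on different arrays, and the mean is smaller than the spread. In MCM2 and MCM5 the signs divide by the dye of the irradiated plate, positive in Cy5 and negative in Cy3. With the dye term of the X-ray arrays taken off, the SD was 0.145 in MCM2, against 0.563 before. In MCM5 it was 0.248, against 0.74 before. MCM4 had -0.01, 0.51, 0.00 and -0.62, MCM6 -0.37, 0.43, -0.70 and -0.51 and MCM7 0.65, 0.14, -0.67 and 0.21. MCM6 was negative on 3 arrays and positive on replicate 2, and its mean of -0.28 ± 0.21 was the lowest of the 12 (adjusted p = 0.911). Without replicate 2, MCM6 fell, with -0.70, and so did MCM10, a factor that helps to start the helicase, with -0.49. The medians of the 12 helicase genes were -0.08 at 4h after X-rays, with 8 negative, and 0.05 at 1h, with 4 negative. At 1h after X-rays MCM2 had 0.39, -0.59, -0.05 and 0.17 and MCM6 0.83, -0.61, -0.74 and 0.47. These again cover both signs, and in both genes they divide by dye in the same way. Without replicate 2 of the 4h group the median was -0.30 with 10 negative. MCM2 then had -0.13, MCM3 -0.12, MCM4 -0.30, MCM5 0.04 and MCM7 -0.08, none of them past the test. CDC45 and the 4 GINS genes lay between -0.16 (GINS3) and 0.03 (GINS4) at 4h after X-rays. Without replicate 2 they lay between -0.43 (CDC45) and 0.06 (GINS4), again without passing.

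All 5 origin licensing genes had a negative mean 4h after X-rays and a positive mean at 1h, with medians of -0.14 and 0.16, and none of the 10 values passed the test. CDC6, the loader of the MCM ring, had ratios of -0.25, 0.76, -0.46 and -0.56 at 4h after X-rays and 0.75, 0.61, 0.40 and 0.53 at 1h. The 4 arrays at 1h are all positive, while at 4h replicate 2 lies above each of the 1h arrays and the other 3 lie below 0. The change in CDC6 at 1h was 0.57 ± 0.22 (adjusted p = 0.9999 by limma), the highest of the 44 at that time. The difference at 4h minus 1h after X-rays was -0.70 ± 0.31 (adjusted p = 0.9998). Without replicate 2 of the 4h group that difference became -1.11 and passed the test. CDT1, the partner of CDC6 in loading, had 0.47, -0.74, -0.48 and -0.40 at 4h after X-rays. Its replicate 1 was positive and the others negative, with a mean of -0.29 ± 0.16 (adjusted p = 0.8202 by limma). Without replicate 2 its change by limma was -0.26, not past the test. Geminin, the inhibitor of CDT1, had -0.55, 0.58, -0.73 and -0.59 at 4h after X-rays. Replicate 2 of GMNN stands alone above 0. Its mean was -0.32 ± 0.24 with all 4 arrays. Without replicate 2 its change by limma was -0.78, lower than each array left, and it fell by the test. ORC6, a subunit of the origin recognition complex, had -0.33, 0.47, -0.39 and -0.07 at 4h after X-rays and ORC1, its largest subunit, had 0.52, -0.07, -0.59 and -0.42. ORC6 was measured by 3 probes with means between -0.31 and 0.18 at 4h after X-rays, 2 of them negative. Both genes held ratios of either sign, and without replicate 2 they had -0.38 (ORC6) and -0.25 (ORC1), not past the test. The median of the 5 genes was then -0.38, and all 5 were still negative.

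The cyclin E, CDC25A and E2F group held the gene that rose, E2F7, and both E2F2 and CDC25A, which were negative on every array at 4h after X-rays. E2F7, an atypical E2F that represses other E2F targets, had ratios of 0.99, 0.83, 0.97 and 1.17 at 4h after X-rays and 0.45, 0.91, 0.13 and 0.51 at 1h. All 8 arrays were positive, and the groups overlap in replicate 2 at 1h. E2F7 rose 4h after X-rays by 0.99 ± 0.17 (SE, n = 4, adjusted p = 0.009565 by limma, 95% interval 0.63 to 1.36), which is 1.99-fold. At 1h its change was 0.50 ± 0.17 (adjusted p = 0.9999). By unadjusted p, E2F7 ranked at place 42 of 18334 genes at 4h after X-rays. Without replicate 2 it still rose, with 0.94. Without replicate 3 of the same group its change by limma was 0.89 and did not pass (adjusted p = 0.1461 by limma). The ratios left were 0.99, 0.83 and 1.17, so the lower value does not come from lower ratios. It comes from the shared dye term, taken off arrays whose dyes no longer balance. Fitted apart, the dye coefficient of E2F7 was 0.56 on the C12 arrays and 0.04 on the X-ray arrays. The call also rests on the turning of replicates 1 and 2, since none of the 44 passed with the ratios as deposited or turned by the labelled dye. E2F7 was measured by 1 probe. E2F7 is itself known as a p53 target, although it is not among the p53 targets listed here. Since the sign was chosen with p53 targets in view, the rise and the call of E2F7 are not independent of that choice.

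E2F2, an activating E2F, had ratios of -0.36, -0.57, -0.31 and -0.58 at 4h after X-rays and 0.16, 0.08, -0.03 and 0.37 at 1h. CDC25A, the phosphatase that activates cyclin E and its kinase, had -0.31, -0.24, -0.60 and -0.65 at 4h and 0.38, 0.43, 0.29 and -0.02 at 1h. E2F2 was measured by 2 probes that were not positively related over the arrays (r = -0.026), with means of -0.68 and -0.23 at 4h after X-rays. In both genes the 4 arrays at 4h are negative and lie below all 4 arrays at 1h. The changes at 4h were -0.45 ± 0.13 for E2F2 (adjusted p = 0.1741 by limma) and -0.45 ± 0.13 for CDC25A (adjusted p = 0.2334), which did not pass. With a separate dye term for each radiation quality they passed as falls (adjusted p = 0.02177 for E2F2 and 0.04436 for CDC25A by limma), in a fit where 0.18% of all genes fell. With only the 8 X-ray arrays in the fit neither passed (adjusted p = 0.5656 for E2F2 and 0.6684 for CDC25A by limma). In that fit 0 of the 44 fell, against 0.0164% of all genes, while E2F7 still rose (adjusted p = 0.01544 by limma), as did 0.207% of all genes. With only the 4 arrays of the group neither passed either (adjusted p = 0.6776 for E2F2 and 0.7024 for CDC25A by limma), with 0.104% of all genes falling and 0.349% rising. With a dye term per quality the root mean square residual over all genes was 0.1265 on the C12 arrays and 0.2952 on the X-ray arrays, and a fit to all 16 arrays shares 1 estimate of the spread. In the fit to all arrays without replicate 2 both passed as falls, at -0.49 for E2F2 and -0.56 for CDC25A. E2F1, the best studied activator of S phase genes, had 0.75, -0.66, -0.24 and 0.17 at 4h after X-rays. Its arrays divide by the dye of the irradiated plate, positive in Cy5 and negative in Cy3, with a mean of 0.01 ± 0.16. Without replicate 2 its change by limma was 0.09, not past the test. CCNE1 (cyclin E1) had 0.34, -0.27, -0.78 and -0.33 and CCNE2 (cyclin E2) had -0.28, -0.24, 0.55 and -0.27. CCNE2 was positive on replicate 3 and CCNE1 on replicate 1, and neither mean passed, at -0.26 for CCNE1 and -0.06 for CCNE2. Without replicate 2 the changes by limma were -0.44 for CCNE1 and 0.12 for CCNE2, again without passing. E2F8, the other atypical E2F, had -0.48, 0.11, -1.003 and -0.35 at 4h and 0.83, 0.86, -0.69 and -0.19 at 1h. Unlike E2F7, E2F8 was negative on 3 of 4 arrays at 4h, with a mean of -0.43 ± 0.22 (adjusted p = 0.7932), but the difference between these genes was not tested. Without replicate 2 it had -0.72 and did not pass. The median of the 7 genes of this group was -0.26 at 4h after X-rays, with 5 negative, and without replicate 2 it was -0.44, with 4 negative.

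**Figure D2:**
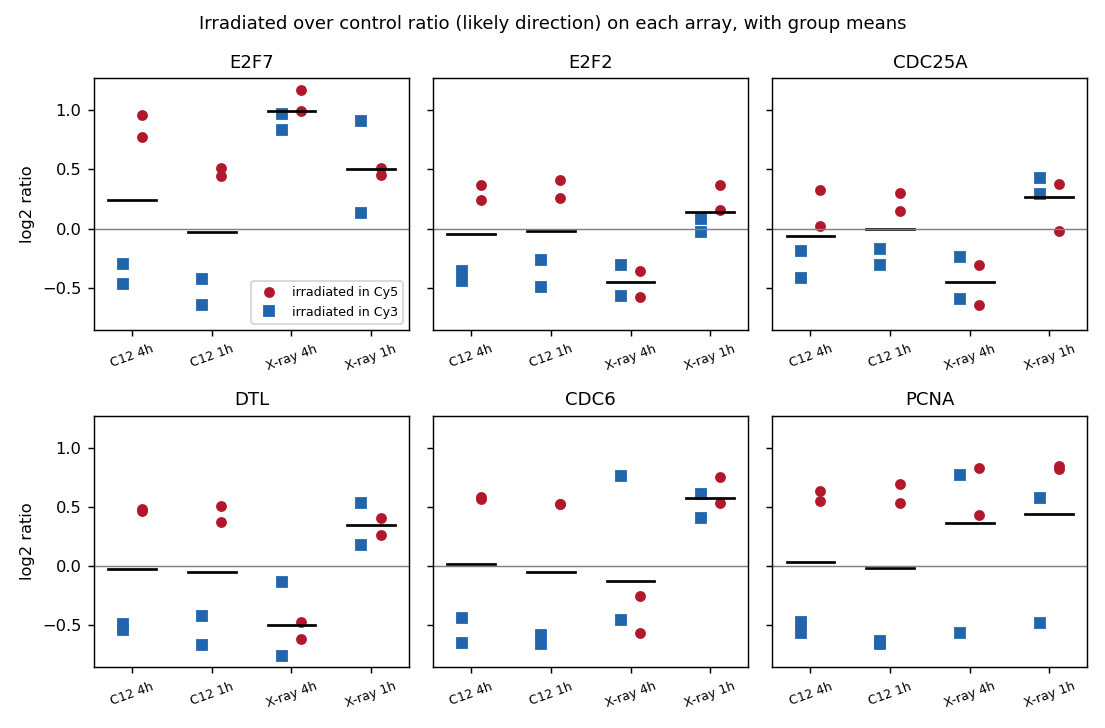
Log2 ratio of irradiated over control, in the likely direction, on each array for E2F7, E2F2, CDC25A, DTL, CDC6 and PCNA, with circles for arrays with the irradiated plate in Cy5, squares for Cy3 and a bar for the mean of 4 arrays. At 4h after X-rays the E2F7 points lie between 0.83 and 1.17, the E2F2, CDC25A and DTL points are all below 0, and after C12 the points of every gene divide by dye.

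Among the polymerase, clamp and Okazaki fragment genes, PCNA, the sliding clamp and a known p53 target, had ratios of 0.83, 0.77, -0.56 and 0.43 at 4h after X-rays and 0.85, 0.58, -0.48 and 0.82 at 1h. It was positive on 6 of these 8 arrays, and replicate 3 was negative at both times. Its mean at 4h, 0.37 ± 0.19, was the highest of the 12 genes of this group and did not pass (adjusted p = 0.7807 by limma). Without replicate 2 its change by limma was 0.05. PRIM1, the catalytic primase subunit, had -0.54, 0.39, -0.70 and -0.90 at 4h after X-rays, and POLE2, a subunit of the leading strand polymerase, had -0.22, 0.37, -0.63 and -0.99. In both, 3 arrays were negative and replicate 2 positive. PRIM1 had the lowest mean of the group, -0.43 ± 0.21 (adjusted p = 0.7598), and without replicate 2 it fell, with -0.84, as did POLE2 with -0.71. RFC3, a subunit of the clamp loader, had -0.05, -0.04, -0.51 and -0.41. All 4 arrays were negative and the change of -0.25 ± 0.11 did not pass (adjusted p = 0.6492). Without replicate 2 RFC3 fell, with -0.38, although its 2 probes were negatively related over the arrays (r = -0.193). The other 8 genes (POLA1, POLA2, PRIM2, RFC2, RFC4, RFC5, FEN1 and LIG1) lay between -0.18 and 0.28 with all arrays. The medians of the 12 genes were -0.17 at 4h, with 8 negative, and 0.12 at 1h, with 3 negative. Without replicate 2 the median at 4h was -0.42 with 10 negative.

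Of the 4 nucleotide genes, 2 were negative and 2 positive 4h after X-rays, with a median of 0.02, and none passed the test. RRM2, the S phase subunit of ribonucleotide reductase, had ratios of -0.30, 0.46, -0.28 and -0.57 at 4h after X-rays. TYMS, thymidylate synthase, had 0.78, 0.60, -0.59 and 0.64. Thymidine kinase 1 (TK1) had 1.04, -0.79, -0.94 and 0.64 at 4h and 0.79, -0.73, -0.86 and 0.80 at 1h. TYMS was positive on 3 of 4 arrays and RRM2 on 1, and in TK1 the arrays divide by the dye of the irradiated plate, with both Cy5 arrays positive and both Cy3 arrays negative. The means at 4h were -0.17 ± 0.22 for RRM2, the lowest of the 4, and 0.36 ± 0.16 for TYMS, the highest (adjusted p = 0.7001 by limma). Without replicate 2 the changes by limma were -0.52 for RRM2 and 0.04 for TYMS, and neither passed. TK1 then had 0.10, and the median of the 4 was -0.12. RRM2B, the p53-induced counterpart of RRM2 and no member of the 44, had a change of 0.39 ± 0.15 (adjusted p = 0.5579 by limma), and 0.31 without replicate 2, not past the test.

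Of the 4 genes linked to chromatin and to PCNA-dependent ubiquitination, DTL was low on every array 4h after X-rays. DTL (CDT2), the substrate receptor of the ubiquitin ligase that destroys CDT1 and p21 on PCNA, had ratios of -0.47, -0.13, -0.76 and -0.62 at 4h and 0.41, 0.18, 0.54 and 0.26 at 1h. The 4h arrays were all negative and the 1h arrays all positive, with no overlap. Its change at 4h was -0.50 ± 0.17, the lowest of the 44 genes (adjusted p = 0.392 by limma). It passed as a fall with a dye term per radiation quality (adjusted p = 0.02385) but not with only the X-ray arrays in the fit (adjusted p = 0.5371 by limma) or only those of its group (adjusted p = 0.5146). In the fit to all arrays without replicate 2 it passed as a fall, at -0.71. All 10 probes of DTL had the same direction at 4h. UHRF1, which helps to copy DNA methylation at the fork, had 0.15, 0.24, 0.30 and 0.38 at 4h after X-rays. It was positive on all 4 arrays, with a mean of 0.27 ± 0.12 that did not pass (adjusted p = 0.6965 by limma). Without replicate 2 its change by limma was 0.23. Its probes were negatively related over the arrays (median r = -0.411). The chromatin assembly subunits CHAF1A and CHAF1B had means of 0.17 and 0.07. Without replicate 2 the changes by limma were -0.09 for CHAF1A and -0.26 for CHAF1B, not past the test. The median of the 4 genes was 0.12 with all arrays and -0.18 without replicate 2.

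Leaving out replicate 2 turned a list with 0 falls at 4h after X-rays into one with 9. These were MCM6, MCM10, GMNN, CDC25A, E2F2, PRIM1, POLE2, RFC3 and DTL, while E2F7 still rose. The median of the 44 was 0.30 on the array left out, so these falls follow in part from that choice. The share of all genes that fell was then 6.19%, and 1.02% rose. In the same fit 5 of 26 housekeeping genes fell, with a median of -0.15. A difference between the 44 and the housekeeping genes was not tested. The median of the 44 genes was -0.34, with 34 negative. With a dye term for each radiation quality as well, 12 of the 44 fell, with CDC6, CCNE1 and RFC5 added, against 8.75% of all genes. When only the X-ray arrays were fitted without replicate 2, E2F7 rose (0.104% of all genes rose and 0.0218% fell) and none of the 44 fell, with a median of -0.28. The number of falls therefore depends on 1 array and on which arrays estimate the spread. The median was -0.06 without replicate 1, -0.34 without replicate 2 and -0.11 without replicate 3, and it was 0.04, above 0, without replicate 4 of the same group. In each of these fits the dyes are out of balance. The shared dye term, with a median of 0.32 over the 44 genes when all arrays are fitted, therefore enters these medians.

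**Figure D3:**
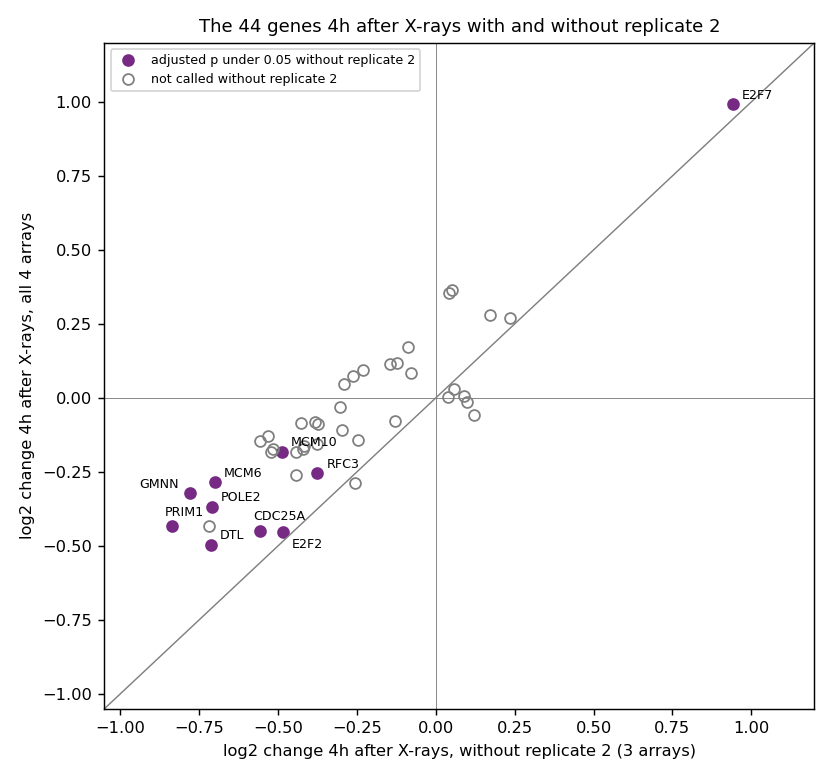
Log2 change of the 44 genes 4h after X-rays from all 4 arrays (vertical) against the change without replicate 2 (horizontal), with the line of equal values. Filled points have an adjusted p under 0.05 without replicate 2, 9 below 0 and E2F7 at 0.94, and most points lie to the left of the line.

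Ratios of the same sign on 4 of 4 arrays at 4h after X-rays were found in 4 genes below 0 (CDC25A, E2F2, RFC3 and DTL), which is 9.09% of the 44, against 2.9% of all genes. In 2 genes they were above 0 (E2F7 and UHRF1), which is 4.55%, against 5.14% of all genes. At 1h after X-rays 4 genes were above 0 on every array (CDC6, E2F7, LIG1 and DTL), 9.09% against 3.58% of all genes, and 0 were below, against 3.14%. E2F7 was the gene above 0 on all arrays at both times. DTL was the gene above 0 on all arrays at 1h and below 0 on all arrays at 4h.

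The difference between the times after X-rays was lowest in DTL, CDC25A, CDC6, E2F8 and E2F2. At 4h minus 1h DTL had -0.84 ± 0.24 (adjusted p = 0.9998 by limma) and CDC25A -0.72 ± 0.19 (adjusted p = 0.9192), and E2F2 had -0.60 ± 0.18 (adjusted p = 0.9998). None of the 44 passed, 4 had an unadjusted p under 0.05 by limma (3.52% of all genes), and 0% of all genes passed. In DTL, CDC25A and E2F2 the 4 arrays at 4h lay below the 4 at 1h without overlap, 3 of 44 genes, against 0.262% of all genes. None lay above without overlap (0.693% of all genes). With each quality's dye coefficient taken off, the same 3 genes lay below (0.665% of all genes) and 0 above (1.31%). The median difference of the 44 was -0.21, with 32 negative, against 0.01 over all genes. Without replicate 2 of the 4h group, 5 of the 44 were lower at 4h by the test (CDC6, GMNN, CDC25A, PRIM1 and DTL, between -1.06 and -0.83 apart from CDC6, given above), against 2.83% of all genes, and with X-ray arrays alone 0 were.

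**Figure D4:**
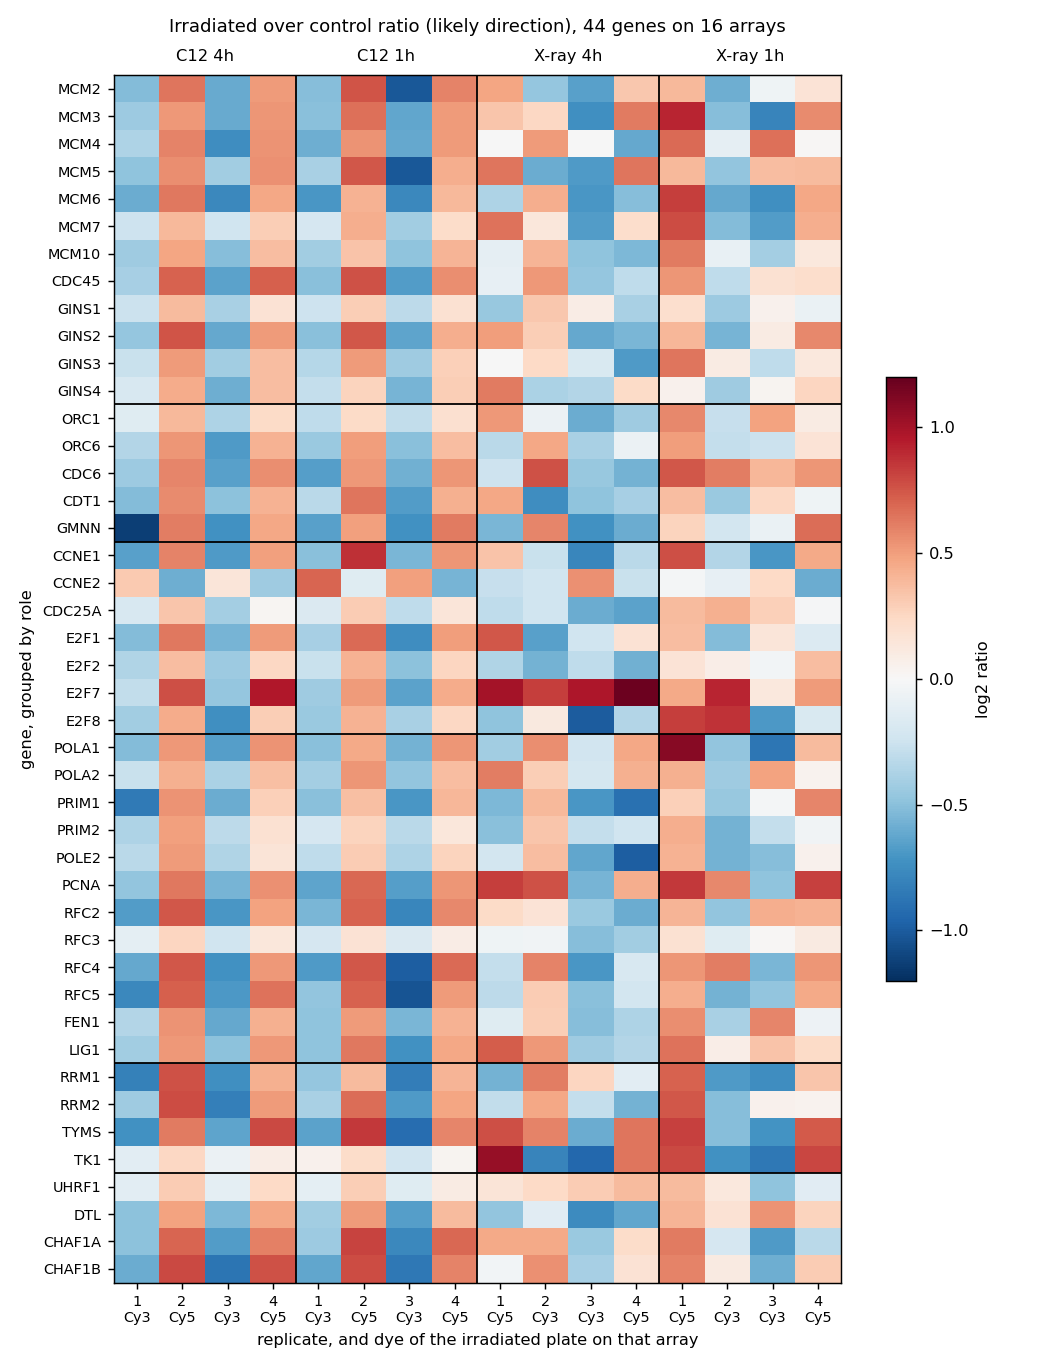
Log2 ratio of irradiated over control, in the likely direction, for the 44 genes (down the page, by role) on the 16 arrays (across, with replicate number and the dye of the irradiated plate), red above 0 and blue below. After C12 nearly all genes are blue where the irradiated plate was in Cy3 and red where it was in Cy5, and after X-rays the colours are mixed, with E2F7 red on all 8 arrays.

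The heat map of ratios by array shows the C12 arrays alternating between negative and positive. None of the 44 genes passed the test at 4h after C12 (0.0109% of all genes rose and 0% fell) or at 1h after C12 (0% and 0%). An unadjusted p under 0.05 by limma was found for 0 of the 44 at either time, and for 44 and 29 of all 18334 genes (0.24% and 0.158%). The fit shares 1 estimate of the spread with the X-ray arrays, whose residuals were larger. Modest changes after C12 were therefore hard to call. With only the C12 arrays in the fit none of the 44 passed either, while 0.0218% of all genes rose at 4h and 0% at 1h. The medians of the 44 were 0.00 at 4h, with 20 negative, and -0.03 at 1h, with 30 negative. At 4h after C12 the means ran between -0.20 in GMNN and 0.24 in E2F7.

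The ratios after C12 followed the dye. CDC6 had ratios of -0.44, 0.58, -0.65 and 0.56 at 4h after C12 and -0.66, 0.52, -0.58 and 0.53 at 1h. MCM2 had -0.52, 0.64, -0.61 and 0.51 at 4h and -0.51, 0.76, -1.02 and 0.59 at 1h. PCNA had -0.47, 0.63, -0.56 and 0.55 at 4h and -0.63, 0.69, -0.66 and 0.53 at 1h. In these genes both arrays with the irradiated plate in Cy3 are negative and both with it in Cy5 positive, at each time. The same division was seen across the list, with 42 or 43 of 44 genes negative on each Cy3 array and 1 on each Cy5 array. CCNE2 ran the other way, with 0.31, -0.59, 0.14 and -0.43 at 4h and 0.70, -0.14, 0.49 and -0.55 at 1h. The dye coefficient of the C12 arrays, fitted on its own, was positive in 43 of 44 genes with a median of 0.53, and in 26 of 26 housekeeping genes with a median of 0.47. It was positive in 53.9% of all genes with a median of 0.06. The balance of dyes removes this term from the group means.

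Once the dye term had been subtracted, the C12 arrays were close to each other. The SD over 4 arrays had a median over the 44 genes of 0.10 at 4h and 0.11 at 1h after C12, against 0.42 at 4h and 0.35 at 1h after X-rays. E2F7 then had 0.27, 0.21, 0.10 and 0.40 on the arrays at 4h after C12, all positive. Its change was 0.24 ± 0.17 (adjusted p = 1 by limma, 95% interval -0.12 to 0.61). With only the C12 arrays in the fit the standard error was 0.065 and the adjusted p 0.6112. GMNN had -0.45, -0.06, -0.05 and -0.22 on the same arrays after the dye term, all negative. Its change of -0.20 ± 0.24 did not pass, with an interval of -0.69 to 0.30. CCNE1 and CCNE2 were likewise negative on all of these arrays after the dye term, and UHRF1 was positive on all. The share of all genes with 1 sign after the dye term was not counted, so this is no trait particular to E2F7 or GMNN. CDC25A, E2F2 and DTL had -0.06, -0.04 and -0.02 at 4h after C12. In these 3 the C12 means were near 0, at an exposure whose dose relative to X-rays is not known here.

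The difference of C12 minus X-rays was not past the test in any of the 44 genes at 4h or at 1h, and 0% of all genes passed at either time. An unadjusted p under 0.05 by limma was found for 2 of the 44 at 4h (1.79% of all genes) and 1 at 1h (0.796%). E2F7 had the lowest difference at 4h, -0.75 ± 0.25 (95% interval -1.27 to -0.23, adjusted p = 0.9999 by limma), and at 1h it had -0.53 ± 0.25. E2F2 had 0.41 ± 0.18 at 4h (95% interval 0.04 to 0.78, adjusted p = 0.9999). For C12 against X-rays, overlap of the groups was counted after each quality's dye coefficient had been taken off, a choice made after seeing the data, since the C12 ratios divide by dye. At 4h CDC25A, E2F2 and DTL lay higher after C12 than after X-rays without overlap, 3 of 44 genes against 1.01% of all genes. E2F7 lay lower, with 0.10 to 0.40 on the C12 arrays and 0.87 to 1.14 on the X-ray arrays, 1 of 44 against 2.89% of all genes. DTL had -0.05 to 0.00 on the C12 arrays and -0.79 to -0.16 on the X-ray arrays. At 1h 4 genes lay lower after C12 without overlap (CDC6, E2F7, LIG1 and DTL), against 1.78% of all genes, and 0 lay higher, against 1.27%. The medians of the 44 were 0.13 at 4h, with 14 negative, and -0.12 at 1h, with 35 negative. The median at 4h lay between -0.06, without replicate 4 of the X-ray 4h group, and 0.34, without its replicate 2. Its sign thus changed with 1 array left out, where the dyes are out of balance. Without replicate 2 E2F7 had -0.70. These intervals are not adjusted over genes, and the missed test does not show that both radiations acted alike. Between the times after C12, 4h minus 1h, none of the 44 passed (0% of all genes), 0 had an unadjusted p under 0.05 by limma, and the median was 0.03. With the dye coefficient taken off, 0 of the 44 lay higher at 4h without overlap (0.796% of all genes) and 0 lower (1.05%).

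The other genes of the pathway and the neighbouring programmes give the setting. Of 67 measured replication and G1/S genes outside the 44, 1 fell 4h after X-rays and 0 rose, with a median of -0.12 and 46 negative. The gene that fell was CCNA2 (cyclin A2, of S and G2 phase), at -0.74 ± 0.12 (adjusted p = 0.005395 by limma), with ratios of -0.58, -0.65, -1.01 and -0.73. All 4 were negative, replicate 2 included. SLBP, the S phase binder of histone messages, had -0.61 ± 0.19 and CHEK1, the kinase of the replication checkpoint, -0.35 ± 0.20, and neither passed. CCND1 (cyclin D1) had 0.31 ± 0.25, RPA1 (single strand binding) 0.21 ± 0.16 and POLD4 (a small subunit of the lagging strand polymerase) 0.08 ± 0.12. Without replicate 2 of the 4h group 20 of the 67 fell, against 6.19% of all genes, SLBP with -0.91 and CHEK1 with -0.72 among them, and the median of the 67 was -0.34. When only the X-ray arrays were fitted 0 of the 67 fell, with replicate 2 or without it, and CCNA2 had an adjusted p of 0.07154 with all 8 arrays by limma. After C12 none of the 67 passed at 4h or at 1h.

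Of 49 measured mitotic genes, 5 fell 4h after X-rays and all 49 were negative. The median of the 44 was -0.10 and that of the 49 mitotic genes -0.55, a difference that was not tested. CCNB1 (cyclin B1) fell by 0.83 on the log2 scale (SE 0.14, adjusted p = 0.00879 by limma). Without replicate 2, 35 of the 49 mitotic genes fell, with a median of -0.86, against 6.19% of all genes. When only the X-ray arrays were fitted, 2 of the 49 fell, against 0.0164% of all genes. In that fit 0 fell without replicate 2, against 0.0218% of all genes. CCNB1 had an adjusted p of 0.07154 by limma in the fit to the 8 X-ray arrays. At 4h after C12, 47 of the 49 were negative with a median of -0.11, and 0 passed. The p53 targets, whose direction entered the choice of sign, had 19 of 28 rising 4h after X-rays with a median of 0.84, and 20 with a median of 0.81 without replicate 2. CDKN1A (p21) rose by 1.45 ± 0.14 at 4h and 1.03 ± 0.14 at 1h after X-rays, and by 1.12 ± 0.14 at 4h after C12 (adjusted p = 8.186e-05, 0.005256 and 0.007691 by limma). At 1h after C12 its change was 0.06 ± 0.14. Of 26 housekeeping genes and of 16 markers of fibroblasts, endothelium and leukocytes, 0 passed 4h after X-rays, with medians of 0.03 and -0.02. Without replicate 2, 5 of the 26 housekeeping genes fell, against 6.19% of all genes, and 1 of the 16 markers rose, against 1.02%. Their medians were -0.15 and 0.14.

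**Figure D5:**
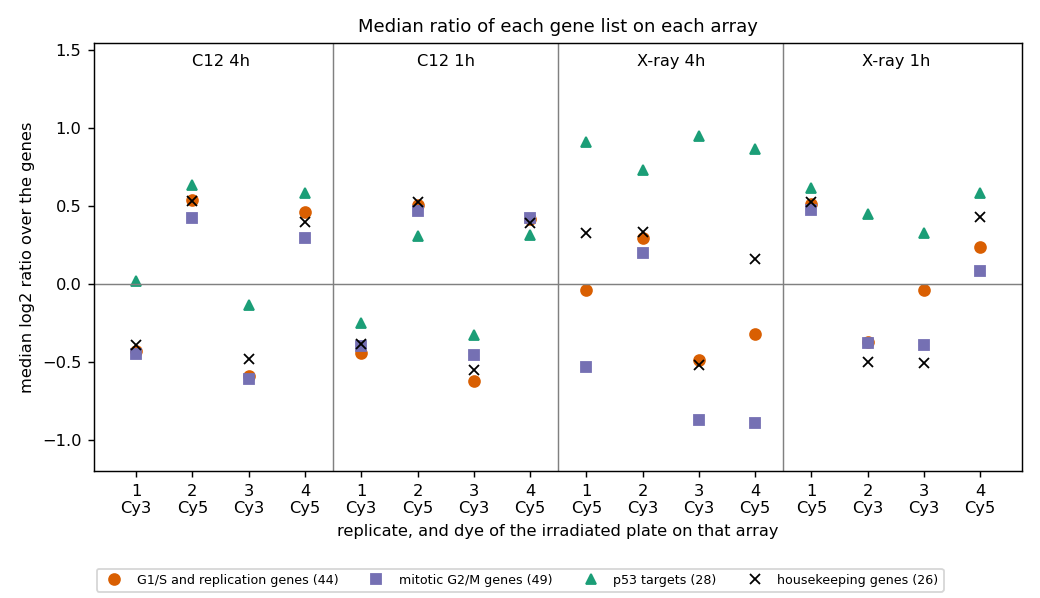
Median log2 ratio of irradiated over control, in the likely direction, on each of the 16 arrays for the 44 G1/S and replication genes, 49 mitotic genes, 28 p53 targets and 26 housekeeping genes, with replicate number and the dye of the irradiated plate below. On the C12 arrays and on replicate 2 at 4h after X-rays the replication and mitotic medians lie close to the housekeeping median or follow its sign, and on X-ray 4h replicates 1 and 4 both lie below it.

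The plot of list medians sets the 44 genes beside the housekeeping genes on each array. At 4h after X-rays the medians of the 44 were -0.04, 0.30, -0.48 and -0.32 on replicates 1 to 4, against 0.33, 0.34, -0.52 and 0.16 for the housekeeping genes. The 44 lay below the housekeeping genes on replicates 1, 2 and 4 and slightly above them on replicate 3. At 1h after X-rays the medians of the 44 were 0.51, -0.37, -0.04 and 0.24, against 0.53, -0.50, -0.51 and 0.43 for the housekeeping genes, with the same sign on every array. The part of array-wide shifts in single values was not tested.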

How the data were processed

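The values were log2 ratios as the authors deposited them, for 45220 features on each array, none missing. limma is named without a version per the submitters' processing notes. Background correction, normalization, log base and ratio direction are not stated in the labels, and base 2 was assumed. On every array the SD was 0.414, and values ran between -3.384 and 2.932. Spot signals were not analysed here, and precision is set by how many arrays there were.

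The platform annotation gave 1 symbol for 31332 features, several for 93 (not used) and none for 13795. Symbols were updated through Entrez identifiers for 31291, and probes were averaged to 18334 genes. Probes of 1 symbol correlated over arrays with a median r of 0.476, against 0.001 for probes of different symbols (2000 pairs each), a check of the names. Replicates 1 and 2 of each group were multiplied by -1. limma 3.58.1 (statmod 1.5.0, R 4.3.3) was fitted to all genes with 4 group means and 1 dye coefficient (11 residual degrees of freedom). Benjamini-Hochberg adjustment ran over all genes, with a threshold of 0.05. The fit was tested on simulated data for 4h after X-rays. Of 100 changes of 0.5 on the log2 scale it recovered 19%, and of 100 changes of 1 it recovered 82%, with 6 false calls each time. A change of 0.5 would thus mostly be missed.

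Genes named with values were those called, the lowest and highest of each role at X-ray 4h, and PCNA, RRM2, CDC6, E2F1, E2F7, CCNE1, CCNE2, CDC25A, CDT1 and MCM2 to MCM7, with 9 genes outside the 44. Values by array for ORC1, E2F8, POLE2, RFC3 and TK1 were added after they had been seen. The members, the lists and the sign of the ratios were chosen with earlier results of these data known. Alternatives covered the dye term, array weights, scaling, probe summary, a filter on low spread, the arrays fitted, replicate blocks, the sign, and each array left out.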

Additional observations from a re-analysis of the deposited data

Results flagged for a closer look

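In 6 of 180 groups of 4 ratios, 1 array lay far from the other 3 by Dixon's criterion (gap over range above 0.829). Chance gives about 1 in 20 such groups. The C12 groups divide into 2 and 2 arrays by dye, where a single array can hardly stand apart by this criterion. At 4h after X-rays GMNN was 0.583 on replicate 2, with the others between -0.73 and -0.55. At the same time CCNE2 was 0.551 on replicate 3 (others -0.28 to -0.24) and TYMS was -0.591 on replicate 3 (others 0.60 to 0.78). At 1h after X-rays MCM5 was -0.469 on replicate 2 (others 0.37 to 0.39) and RFC2 was -0.474 on replicate 2 (others 0.41 to 0.44). RFC4 was -0.553 on replicate 3 at 1h (others 0.53 to 0.61).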

How the results depend on the processing

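The change in E2F7 4h after X-rays was positive under 30 of 30 alternatives that kept the sign rule (0.83 to 1.10) and passed under 27, with adjusted p between 9.866e-05 and 0.2358. It did not pass with no dye term (0.99, adjusted p = 0.1593), with array weights (0.83, 0.2358) or without replicate 3 (0.89, 0.1461). The count of genes called 4h after X-rays was 1 as reported. It was 0 with no dye term, with array weights, with the ratios as deposited and with the deposited ratios turned by the labelled dye. With a dye coefficient per radiation quality it was 4, where 1.03% of all genes rose and 0.18% fell. Leaving out 1 array gave counts between 0 (without replicate 3) and 10 (without replicate 2, where 1.02% of all genes rose and 6.19% fell). Leaving out replicate 2 together with a dye coefficient per quality, chosen after seeing the data, gave 13, and 1 at 1h after X-rays. Of all genes 2.06% rose and 8.75% fell in that fit at 4h, and 0.164% rose and 0.0218% fell at 1h. For 4h minus 1h after X-rays the count was 0 as reported, between 0 and 5 with 1 array left out, and 8 with both of these changes. The 5 were falls without replicate 2, where 2.83% of all genes fell. The 8 were falls too, where 5.53% of all genes fell. The median of that difference was 0.19 with the deposited ratios turned by the labelled dye, against -0.21 as reported. With 1 array left out the median 4h after X-rays lay between -0.34 and 0.04, and that of C12 minus X-rays at 4h between -0.06 and 0.34. Such fits have dyes out of balance, so the shared dye term enters these values. Of the other alternatives, 238 counts and 248 medians stayed within 1.5 times or 1 SD.

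Replicate numbers do not pair the samples: after the dye term, arrays of 1 number correlated with r between -0.31 and 0.23, over 0.1 in 2 of 24 pairs, and 1 of 16 arrays correlated best with its own number. With the number as a fixed block E2F7 was 0.99 (adjusted p = 0.004837 by limma), and the count 4h after X-rays was 1 and the other counts 0, as without it. A random replicate block gave the same counts. Cultures cannot be told apart from arrays, and C12 and X-ray doses are unknown here.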
